A study of Mus musculus with 6 samples.

Results

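The imprinted genes *Plagl1*, *Grb10*, *Zrsr1* and *Commd1* were examined for ZFP57 and KAP1 binding in 2 hybrid mouse embryonic stem cell (ESC) lines. All peaks lying within the gene bodies and 20 kb on either side were taken, which gave 26 peaks of the 123233 peaks in the 4 deposited lists. *Zrsr1* lies inside an intron of *Commd1*, so the 4 genes made 3 separate windows of 416.8 kb in all. JB1 cells come from the cross of a JF1 female with a B6 male, and BJ1 cells from the reciprocal cross. Both lines thus carry the same pair of autosomal genomes, and no gene was deleted or added. According to the authors the lines were male, so their X and Y chromosomes come from opposite strains. The whole lists include peaks on X and Y. Chromatin of each line was precipitated with an antibody against ZFP57 and, separately, with an antibody against KAP1, and 1 peak list per line and antibody was deposited. Each line is a hybrid ESC line with a single library per antibody, and the lists hold positions on the B6 reference genome (mm9) without height, score or read number. No difference between the lines could therefore be set against replicate error, no test was possible, and all values are descriptions of these 4 libraries. The read depth behind the lists is unknown, and the labelled cell type could not be checked, since no expression was measured.

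Imprinted genes are expressed from the maternal or the paternal allele only, under the control of imprinting control regions (ICRs) whose DNA methylation is set in the germ line. ZFP57 is a zinc-finger protein that binds a methylated hexanucleotide, TGCCGC, and brings the co-repressor KAP1 to the methylated allele, where the pair preserves the imprint after fertilisation. *Plagl1* encodes a zinc-finger transcription factor expressed from the paternal allele, and *Grb10* encodes an adaptor protein that restrains signalling by the insulin and insulin-like growth factor receptors. *Zrsr1* is a paternally expressed retrogene related to a splicing factor, and *Commd1*, its host gene on the opposite strand, encodes a protein of copper metabolism and endosomal sorting. The ICRs of these loci acquire their methylation in the oocyte. Methylation was not measured in the lists, and no ICR coordinates were used. A peak of a member window that overlapped a peak of every other list is called the peak at the ICR.

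Each window held a single ZFP57 peak in each line, and each of these peaks overlapped a peak of every other list. By the rule above, they are called the peaks at the ICRs. The sequences at the centre of the finding are the motif pairs inside these peaks, given for the forward strand of mm9 from 5′ to 3′. Capitals mark each copy of TGCCGC or of its variant GGCCGC, which appear as GCGGCA and GCGGCC where they lie on the reverse strand, and 2 overlapping copies form a run of 8 capitals. They were read at chr10:12810668-12810697 and chr10:12810867-12810896 for *Plagl1*, chr11:11926227-11926256 for *Grb10* and chr11:22872424-22872453 for *Zrsr1*/*Commd1*.
Plagl1, untranslated exon: ctcggggagttGCGGCCGCgggcaccgggc
Plagl1, intron: ccgTGCCGCgacgggatgggtTGCCGCgct
Grb10, untranslated exon: gTGCCGCtcagagacgaatgatcGCGGCAg
Zrsr1/Commd1, intron of Commd1: aattggtaactGCGGCCGCcccacagataa

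The pairs differed in composition between the loci. *Plagl1* carried 2 forward copies of TGCCGC in its intron and an overlapping inverted pair of GGCCGC in its untranslated exon. *Grb10* had a forward and a reverse copy of TGCCGC. At *Zrsr1*/*Commd1*, the only motifs of the ZFP57 peak were an overlapping inverted pair of GGCCGC, the same 8 bases as in the *Plagl1* exon.

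*Plagl1* (ENSMUSG00000019817.11; chr10:12810497-12851500, plus strand) had a ZFP57 peak with the same edges in both lines and a KAP1 peak that was wider in BJ1. ZFP57 occupied chr10:12810301-12811350 in JB1 and exactly the same 1050 bp in BJ1. KAP1 covered 1200 bp in JB1 (chr10:12810151-12811350) and 1500 bp in BJ1 (chr10:12810001-12811500). Of the 27 annotated *Plagl1* transcripts, 23, from 8 of 12 distinct start positions, began inside all 4 peaks. The ZFP57 peak covered the untranslated exon and the beginning of the intron that follows.

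*Grb10* (ENSMUSG00000020176.10; chr11:11830511-11938686, minus strand) had the narrowest site of the 3. The ZFP57 peak measured 600 bp in JB1 (chr11:11925901-11926500) and 750 bp in BJ1 (chr11:11925751-11926500). KAP1 covered 900 bp in both lines, at chr11:11925751-11926650 in JB1 and at chr11:11925601-11926500 in BJ1. The site was not at the 5′ end of the gene, which lay 12.2 kb upstream of the ZFP57 peak of either line. Of 12 annotated transcripts, only Grb10-001 began inside it, with its start at position 11926327, and all 4 motifs lay in the untranslated exon of that transcript.

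The site shared by *Zrsr1* (ENSMUSG00000044068.4; chr11:22873215-22876498, plus strand) and *Commd1* (ENSMUSG00000051355.11; chr11:22734744-22882382, minus strand) was the widest in KAP1. ZFP57 occupied 1200 bp in JB1 (chr11:22871851-22873050) and 1050 bp in BJ1 (chr11:22871851-22872900). KAP1 covered 1950 bp in both lines, at chr11:22871701-22873650 in JB1 and at chr11:22871551-22873500 in BJ1. The single start of *Zrsr1* lay 165 bp beyond the ZFP57 peak in JB1 and 315 bp beyond it in BJ1, whereas it lay inside the KAP1 peak of both lines. For *Commd1*, the start of the non-coding transcript Commd1-006 was inside all 4 peaks, while the 5′ end of the gene was 9.33 kb away in JB1 and 9.48 kb in BJ1.

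**Figure D1:**
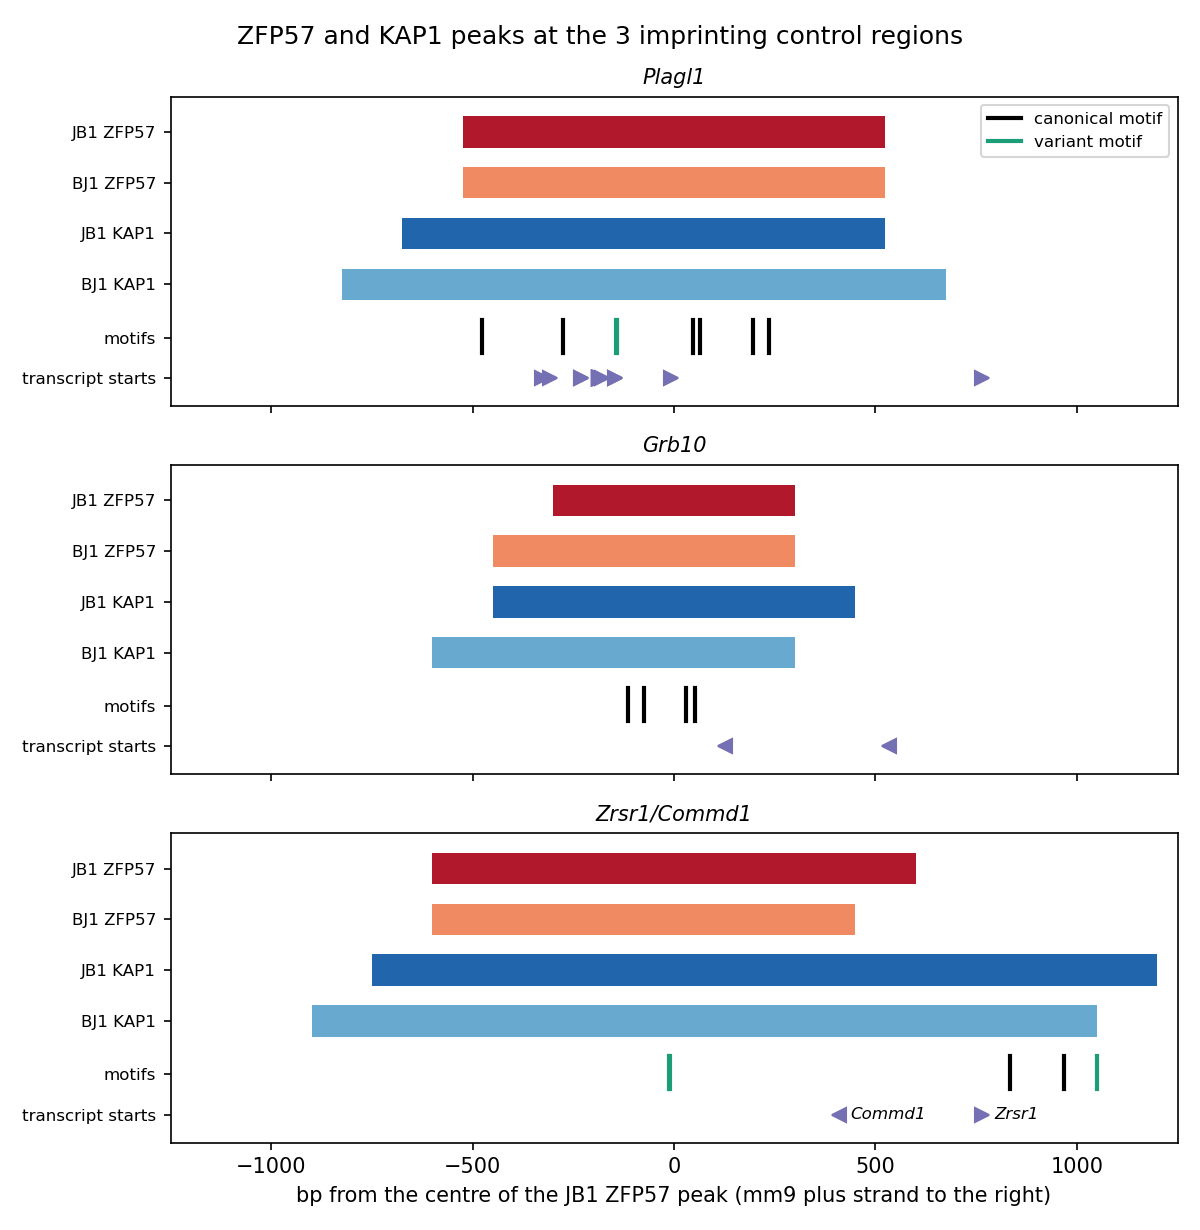
Horizontal bars are the ZFP57 and KAP1 peaks of each line at the 3 regions, on an axis of bp from the centre of the JB1 ZFP57 peak, with black ticks for TGCCGC, green ticks for its variant GGCCGC (a tick can hold 2 overlapping copies) and arrowheads for annotated transcript starts in their direction. All motifs of *Plagl1* and *Grb10* lie under all 4 bars, while at *Zrsr1*/*Commd1* the KAP1 bars run 600 bp past the ZFP57 bars and over the start of *Zrsr1*.

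Between the lines, the ZFP57 peaks were at the same place at all 3 loci. The JB1 and BJ1 peaks shared 100% of their joint length at *Plagl1*, 80.0% at *Grb10* and 87.5% at *Zrsr1*/*Commd1*. *Grb10* was 150 bp wider in BJ1, through its left edge, whereas *Zrsr1*/*Commd1* was 150 bp wider in JB1, through its right edge. As the lists are on a grid of 150 bp, these differences amount to 1 grid window. Overlap with the other line was found for 3 of 3 ZFP57 peaks in each direction at these loci, compared with 5.40% of the whole JB1 list and 43.6% of the whole BJ1 list. Of the 566 pairs of ZFP57 peaks that matched one another alone, 120 (21.2%) had identical edges, as *Plagl1* had, and 74.2% had both edges within 1 grid window. BJ1 was the wider line in 9.72% of the pairs, as at *Grb10*, and JB1 in 65.2%, as at *Zrsr1*/*Commd1*. Among the imprinted genes compared below, BJ1 was wider at *Gpr1*, *Trappc9*, *Impact*, *Nnat*/*Blcap*, a *Gnas* site and *Peg10*/*Sgce*. It was also wider at *Meg3* and *Peg3*, where a BJ1 peak overlapped both JB1 peaks. JB1 was wider at *Igf2r*/*Airn*, *Mest*, *Nap1l5*/*Herc3*, *Snrpn* and *Kcnq1*, and the widths were equal at *H19* and the other *Gnas* site.

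KAP1 accompanied ZFP57 at every one of these sites. A KAP1 peak of the same line overlapped 3 of 3 ZFP57 peaks in JB1 and 3 of 3 in BJ1, against 60.5% and 55.7% of the whole lists. In all 6 cases the KAP1 peak contained the ZFP57 peak entirely, as did 97.3% of the pairs of the JB1 lists and 97.8% of those of BJ1. KAP1 was 1.14 times as wide as ZFP57 at *Plagl1* in JB1 and 1.43 times in BJ1. The ratio was 1.50 and 1.20 at *Grb10*, and 1.62 and 1.86 at *Zrsr1*/*Commd1*. All 6 ratios were below the median ratio of their line, which was 3.20 in JB1 and 2.00 in BJ1. This did not set the loci apart from the other imprinted genes compared below. In JB1, all sites of those genes were below the median except a *Peg3* site. In BJ1, all were below it except a *Gnas* site and *Peg10*/*Sgce*.

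The margin of KAP1 around ZFP57 was lopsided at *Zrsr1*/*Commd1*. There, KAP1 went past ZFP57 by 600 bp on the side of *Zrsr1* in both lines, and by 150 bp in JB1 and 300 bp in BJ1 on the other side. At *Plagl1*, the margin was 150 bp on the upstream side and absent on the downstream side in JB1, and 300 bp and 150 bp in BJ1. At *Grb10*, it was 150 bp on either side in JB1 and 150 bp on the left side alone in BJ1. The KAP1 peaks of BJ1 began 150 bp to the left of those of JB1 at all 3 loci. At *Grb10* and *Zrsr1*/*Commd1*, the right edge moved by the same step, so that the KAP1 peaks of the lines were equally wide and shifted by 1 grid window. Among 27319 matched pairs of KAP1 peaks in the whole lists, a start 1 window earlier in BJ1 was found in 28.9% and an equal width with shifted edges in 5.34%.

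The widths were then ranked within each list, counting ties at their middle. In ZFP57, the *Plagl1* peak was at percentile 95.9 in JB1 and 97.0 in BJ1, and the *Zrsr1*/*Commd1* peak at 97.2 and 97.0, both far above the median of 450 bp. The *Grb10* peak was at percentile 73.7 in JB1 and 90.1 in BJ1, although it differed by 1 grid window between them. In KAP1, *Plagl1* was at percentile 82.7 in JB1 and 92.1 in BJ1, *Grb10* at 72.8 and 77.8, and *Zrsr1*/*Commd1* at 91.3 and 94.8, where the median of both lists was 600 bp. Among the KAP1 peaks that overlapped ZFP57 of the line, these ranks fell to 43.5 and 68.0, 29.1 and 42.1, and 60.9 and 73.7, respectively. *Grb10* was thus above the median width of the ZFP57 peaks and below that of the KAP1 peaks that carried ZFP57, in both lines. Among the ZFP57 peaks that overlapped a peak of each other list, it was at percentile 31.7 in JB1 and 81.5 in BJ1.

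**Figure D2:**
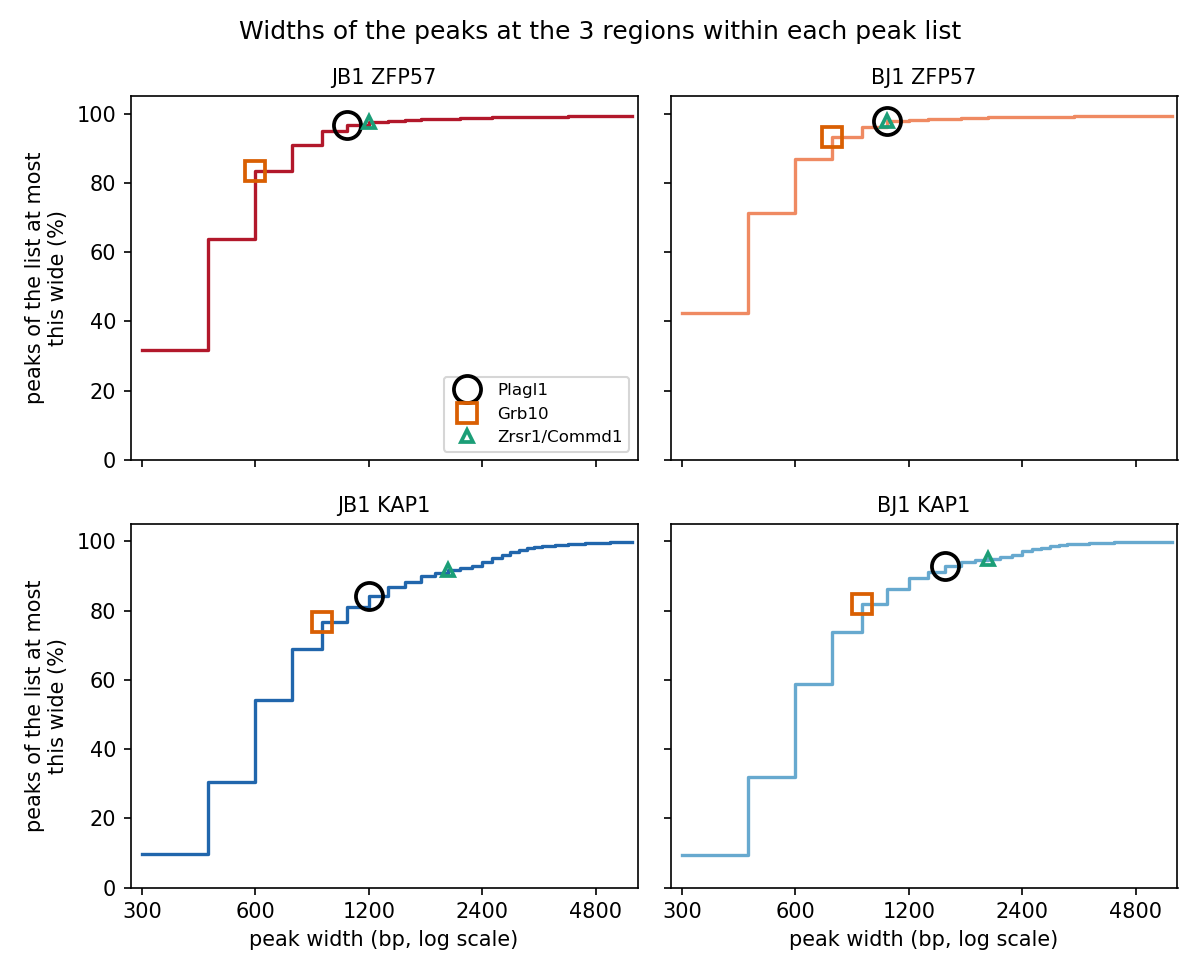
Each panel shows, for 1 peak list, the percentage of peaks (vertical axis) at most as wide as the value on the horizontal axis (bp, log scale, drawn up to 6000 bp), and the open symbols mark the peaks at *Plagl1*, *Grb10* and *Zrsr1*/*Commd1*. *Grb10* is the narrowest of the 3 in every list, and *Plagl1* and *Zrsr1*/*Commd1* coincide at 1050 bp in BJ1 ZFP57.

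The widest ZFP57 peak was not the one with the most motifs. The *Plagl1* peak held 8 motifs, 6 of TGCCGC and 2 of GGCCGC. The *Grb10* peak held 4, all TGCCGC, and the *Zrsr1*/*Commd1* peak, the widest in JB1, held 2, both GGCCGC. All of them lay in the stretch common to the 4 peaks. For comparison, 4 or more motifs were found in 1.78% of the JB1 ZFP57 peaks of 600 bp, the width of *Grb10*, and 8 or more in 1.06% of those of 1050 bp, the width of *Plagl1*. The shares were higher in the shorter BJ1 ZFP57 list. Of its peaks of 750 bp, the width of *Grb10* in BJ1, 18.4% had 4 or more motifs. Of its 20 peaks of 1050 bp, 5.00% had 8 or more, which was the *Plagl1* peak alone. The shares of both lists count the members themselves. Among the 545 JB1 ZFP57 peaks that overlapped a peak of each other list, 14.9% had 4 or more motifs and 3.49% had 8 or more. At least 1 TGCCGC was present in 69.3% of the JB1 ZFP57 peaks of 1200 bp, the width of *Zrsr1*/*Commd1*, and either motif in 75.0%. In autosomal tiles of 1200 bp of mm9, the shares were 6.98% and 11.4%.

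The motifs at *Plagl1* lay on either side of the ZFP57 peak centre, between 477 bp to the left and 235 bp to the right. A 234 bp stretch of the intron to the right of the centre, chr10:12810850-12811083, holds 4 of the 6 TGCCGC copies, and is shown to give their spacing.
Plagl1, intron: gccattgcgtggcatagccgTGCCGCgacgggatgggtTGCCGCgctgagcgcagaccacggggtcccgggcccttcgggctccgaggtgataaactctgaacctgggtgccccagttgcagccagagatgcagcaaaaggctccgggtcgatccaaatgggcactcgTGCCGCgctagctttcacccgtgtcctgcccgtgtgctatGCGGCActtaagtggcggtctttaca

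The leftmost pair in this stretch formed a cluster, here taken as motifs with starts less than 38 bp apart, while the rightmost pair, a forward and a reverse copy, was 40 bp apart and did not count as one. *Grb10* also had a pair at 40 bp, formed by 2 reverse copies of TGCCGC to the left of its cluster. These copies, at chr11:11926071-11926100 and chr11:11926111-11926140, are shown because 23 of their 30 bases are identical.
Grb10, left copy: acgcaccgacatGCGGCAacatgcgctgac
Grb10, right copy: acgggccaacacGCGGCAacacgcgccaac

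*Plagl1* had 2 clusters, *Grb10* 1 and *Zrsr1*/*Commd1* 1. A cluster was present in 6.07% of all JB1 ZFP57 peaks and in 35.2% of the 545 JB1 ZFP57 peaks that overlapped a peak of each of the other 3 lists, which are called sites of all 4 lists. The overlapping inverted pair of GGCCGC found at *Plagl1* and *Zrsr1*/*Commd1* was present at 14 (2.57%) of these 545 sites, these loci included. It was present in 233 (2.18%) of all JB1 ZFP57 peaks and in 19 (1.44%) of those of BJ1.

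A site without TGCCGC, as at *Zrsr1*/*Commd1*, was uncommon among the sites of all 4 lists, of which 65 (11.9%) lacked it and 49 of these held GGCCGC. The overlapping pair was close to the middle of the ZFP57 peak, 13 and 11 bp to the left of its centre in JB1. Outside the ZFP57 peaks but inside the KAP1 peaks of both lines there were 2 reverse copies of TGCCGC, 834 and 968 bp to the right of that centre, within *Zrsr1*. A further GGCCGC, 1049 bp to the right, was inside the KAP1 peak of JB1 only. A stretch of 248 bp around the pair, chr11:22872315-22872562 in the intron of *Commd1*, is shown because it is built of repeated units.
Zrsr1/Commd1, intron of Commd1: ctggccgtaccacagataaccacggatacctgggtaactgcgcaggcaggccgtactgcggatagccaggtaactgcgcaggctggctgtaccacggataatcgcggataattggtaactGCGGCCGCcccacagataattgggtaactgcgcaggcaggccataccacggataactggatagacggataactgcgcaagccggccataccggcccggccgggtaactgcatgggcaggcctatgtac

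Its most frequent run of 12 bases, aactgcgcaggc, occurred 3 times in this stretch and 7 times in the whole JB1 ZFP57 peak. At *Grb10*, the run ccggcacgcgcc occurred 6 times in the ZFP57 peak, although that peak was narrower by 600 bp. No run of 12 bases occurred more than once in the *Plagl1* peak. The median over the 545 sites of all 4 lists was 2 copies, and 56 sites (10.3%) had 7 or more and 75 (13.8%) had 6 or more. Runs were counted on the forward strand with overlaps allowed, and how such repeats bear on the placing of reads was not tested.

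The ZFP57 peaks of these loci were rich in CpG, the dinucleotide that carries DNA methylation. The 600 bp of the *Grb10* peak in JB1 held 83 CpGs, or 13.8 per 100 bp, and none of the other 10666 JB1 ZFP57 peaks exceeded 9.33. In BJ1, the *Grb10* peak had 12.8 per 100 bp, and the highest value of any other ZFP57 peak was 9.0. *Plagl1* had 7.71 CpGs per 100 bp in both lines, and *Zrsr1*/*Commd1* had 6.58 in JB1 and 6.76 in BJ1. In JB1, 10 peaks exceeded *Plagl1* and 186 exceeded *Zrsr1*/*Commd1*, and the median of the list was 2.22. In the shorter BJ1 list of 1318 peaks, 21 exceeded *Plagl1* and 42 exceeded *Zrsr1*/*Commd1*, with a median of 1.67. The ratio of observed to expected CpGs was 1.17 at *Grb10*, 0.850 at *Plagl1* and 0.810 at *Zrsr1*/*Commd1* in JB1, compared with a median of 0.389. By this ratio, 7 JB1 ZFP57 peaks exceeded *Grb10*, 929 exceeded *Plagl1* and 1267 exceeded *Zrsr1*/*Commd1*. In the KAP1 lists, 33 JB1 peaks and 21 BJ1 peaks had a higher CpG density than that of *Grb10*, which was 12.1 and 12.7 per 100 bp.

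**Figure D3:**
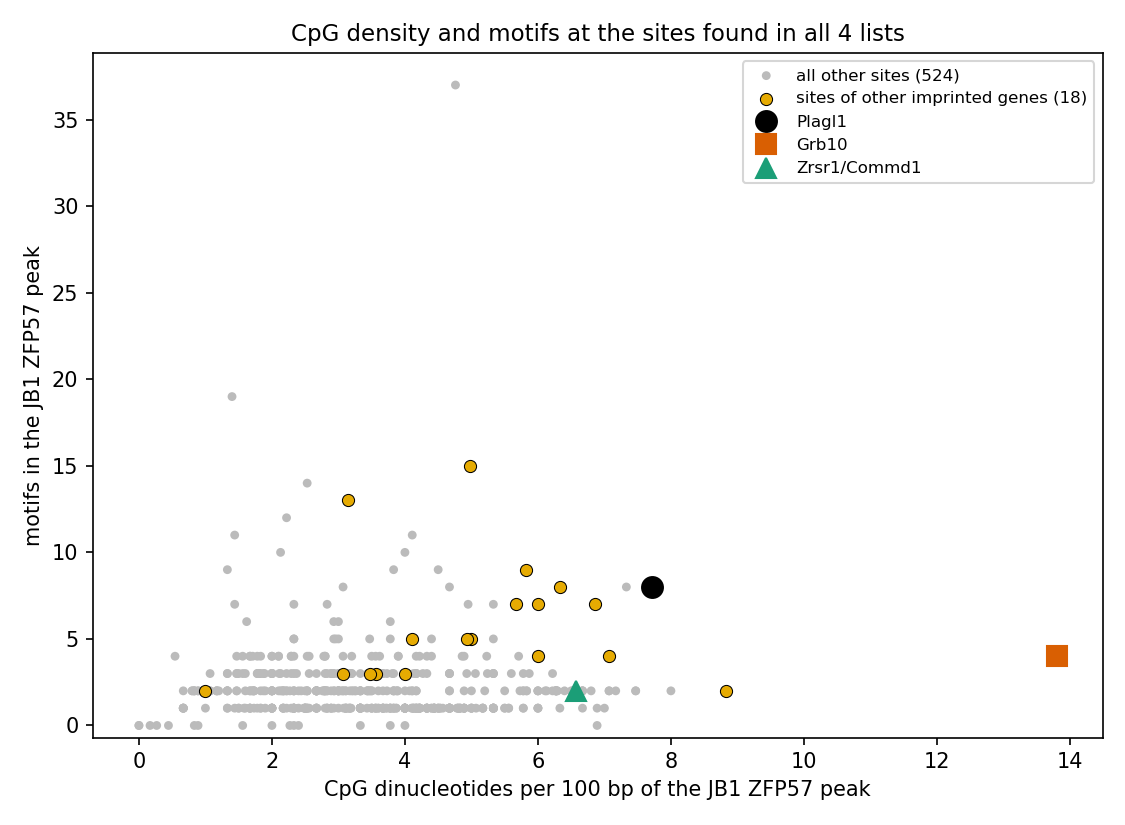
Each point is 1 of the 545 sites of all 4 lists, with the CpGs per 100 bp of its JB1 ZFP57 peak on the horizontal axis and the number of TGCCGC and GGCCGC motifs in it on the vertical axis, and yellow points are the 18 sites of other imprinted genes. *Grb10* stands apart on the right at 13.8 CpGs per 100 bp, while *Plagl1* has 8 motifs and *Zrsr1*/*Commd1* has 2.

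Beyond the ICRs, the windows held KAP1 peaks and no ZFP57 peak. The nearest other ZFP57 peak was 578 kb away from that of *Plagl1* in JB1 and 310 kb away in BJ1. For *Grb10* these distances were 536 kb and 1647 kb, and for *Zrsr1*/*Commd1* 224 kb and 2258 kb. KAP1 had 5 peaks in the 3 windows in JB1 and 15 in BJ1. Of these, 3 in each line were at the ICRs, so that ZFP57 was present at 3 of 5 and 3 of 15 KAP1 peaks, compared with 14.1% and 1.00% of the whole lists. Of the JB1 KAP1 peaks, 4 of 5 were found in BJ1, against 85.9% of the list, and of the BJ1 peaks, 4 of 15 were found in JB1, against 45.3%.

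The peaks found in BJ1 alone were mostly in *Commd1*, whose window held 10 BJ1 KAP1 peaks and 2 JB1 KAP1 peaks. The BJ1 list is the longer one, with 2.73 peaks per 100 kb of the genome compared with 1.46 in JB1, and over the 3 windows the densities were 3.60 and 1.20. Of the 11 peaks found in BJ1 alone, 1 held a motif. A motif was present in 28.0% of the whole BJ1 KAP1 list, which includes the peaks shared with JB1. The share was 21.9% of its peaks of 600 bp and 39.0% of those of 1050 bp. It was not counted for all peaks found in BJ1 alone. The peak with a motif was at the promoter of *Commd1*. It measured 600 bp (chr11:22881901-22882500), covered 4 of 7 transcript starts and held 1 TGCCGC and 1 GGCCGC, with 6.33 CpGs per 100 bp. It had no counterpart in JB1 and no ZFP57 in either line. The widest of the 11 peaks, with 1050 bp (chr11:22799701-22800750), overlapped an exon of *Commd1* that holds coding and untranslated sequence.

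In the *Grb10* window, BJ1 alone had a KAP1 peak of 600 bp in an intron (chr11:11905501-11906100) and 1 of 300 bp upstream of the gene (chr11:11944201-11944500). In the *Plagl1* window, it alone had 1 of 450 bp (chr10:12790801-12791250), 19.2 kb upstream of the gene. JB1 alone had a KAP1 peak of 450 bp in the 3′ untranslated region of *Grb10* (chr11:11832901-11833350), which held 2 copies of TGCCGC. A peak of 900 bp with identical edges in both lines (chr11:22726201-22727100) lay in an intron of the pseudogene *Gm12057*, past the 3′ end of *Commd1*, and held 1 TGCCGC. It was the only KAP1 peak of the windows other than those at the ICRs that both lines shared.

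**Figure D4:**
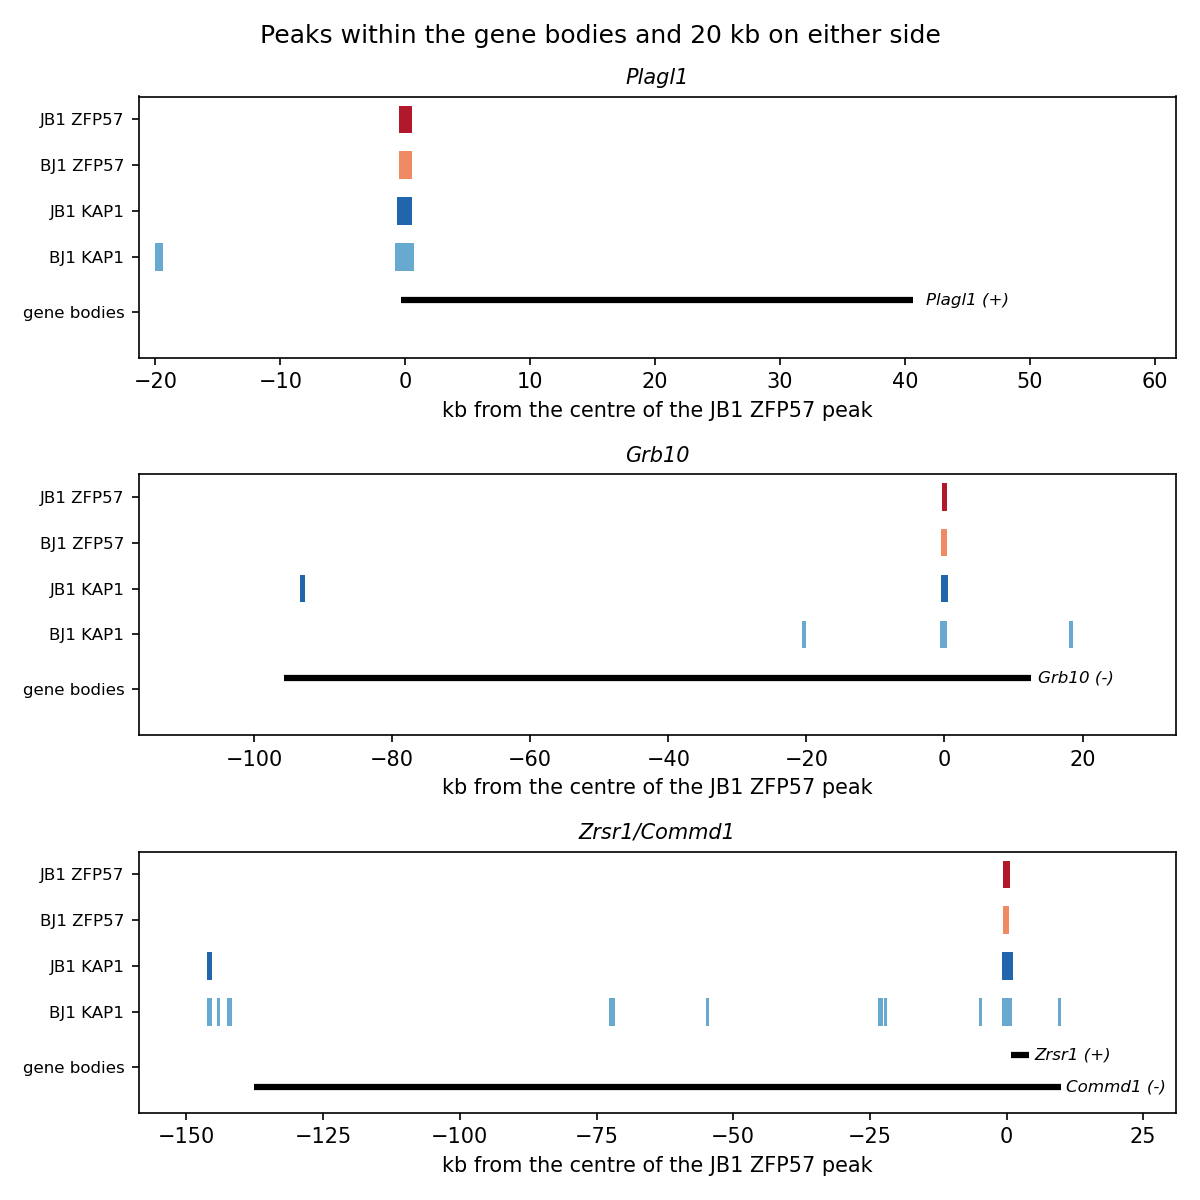
Bars are the peaks of each list over the whole windows, on an axis of kb from the centre of the JB1 ZFP57 peak, with bars narrower than 0.6 kb drawn at that width, and black lines are the bodies of the genes with their strand. Each window has 1 position where all 4 lists have a bar, and the *Commd1* window has 10 bars in BJ1 KAP1 and 2 in JB1 KAP1.

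Windows of the same kind were drawn around all 22367 annotated protein-coding genes. A JB1 ZFP57 peak was present in 17.3% of them and a BJ1 ZFP57 peak in 4.18%, while all 4 members had both. JB1 KAP1 was present in 47.1% and BJ1 KAP1 in 78.8%. ZFP57 of both lines at the same place was found in 2.22% of the gene windows, and all 4 lists at the same place in 2.15%. The windows of *Plagl1*, *Grb10* and *Commd1* measured 81.00, 148.2 and 187.6 kb and that of *Zrsr1* 43.28 kb, close to the length that the flanks alone give. Among genes with windows of 0.8 to 1.25 times their length, all 4 lists met in 2.37% for *Plagl1*, 3.07% for *Grb10*, 1.47% for *Zrsr1* and 3.87% for *Commd1*. The members are not independent of each other, since *Zrsr1* and *Commd1* share a site.

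The sites were also set beside those of other imprinted genes. Of 29 such genes listed, 27 were in the annotation, 20 had a JB1 ZFP57 peak and 19 a BJ1 ZFP57 peak. ZFP57 of both lines at the same place was found at 18 genes (*Gpr1*, *Nnat*, *Blcap*, *Gnas*, *Peg10*, *Sgce*, *Mest*, *Nap1l5*, *Herc3*, *Snrpn*, *Peg3*, *Kcnq1*, *Trappc9*, *Igf2r*, *Airn*, *Impact*, *H19* and *Meg3*), and all of them had KAP1 of both lines there. These genes share 18 sites in JB1 ZFP57, with widths between 600 and 2250 bp and a median of 900 bp. The *Grb10* peak was at the lower end of this range, and 14 of the 18 sites were wider, while 4 were wider than *Plagl1* and 4 wider than *Zrsr1*/*Commd1*. In BJ1 ZFP57, 12 sites were wider than *Grb10*, 8 wider than *Plagl1* and 8 wider than *Zrsr1*/*Commd1*. In KAP1, *Grb10* was exceeded by 16 sites in JB1 and 18 in BJ1, *Plagl1* by 10 in either line, and *Zrsr1*/*Commd1* by 3 and 4, counting the peaks of *Meg3* and *Peg3* in these 3 lists once for each of the 2 JB1 ZFP57 peaks they overlap.

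The motif numbers at these 18 sites ranged from 2 to 15, with a median of 5. *Plagl1* was exceeded by 3 sites and *Grb10* by 10. *Zrsr1*/*Commd1* was exceeded by 16 and was the only one of the 21 sites without TGCCGC. A cluster was present at 15 of the 18. No site exceeded *Grb10* in CpG density, where the highest was 8.83 per 100 bp at *Peg10*/*Sgce*, 1 exceeded *Plagl1* and 3 exceeded *Zrsr1*/*Commd1*. The highest number of copies of a run of 12 bases was 7, as at *Zrsr1*/*Commd1*, and the median was 2.

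The relatives and partners of the members were examined in the same way. None of 20 genes, comprising *Plag1* and *Plagl2*, the adaptors *Grb7* and *Grb14*, the receptors *Insr* and *Igf1r*, the splicing factors *Zrsr2*, *U2af1* and *U2af2*, the other *Commd* genes and their partners *Ccdc22* and *Ccdc93*, had ZFP57 in both lines, where the share over all gene windows was 2.22%, so that 0 of 20 does not set these genes apart. In JB1 alone, *Insr*, which encodes the insulin receptor, had 1 ZFP57 peak, and *Commd10* had 2, so that 2 of 20 genes had a JB1 ZFP57 peak, against 17.3% of all gene windows. No ZFP57 peak of BJ1 was found at any of the 20, against 4.18% of all gene windows.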

How the data were processed

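ZFP57 and KAP1 binding was measured by ChIP-seq in JB1 and BJ1 hybrid ESCs. Each antibody gave 1 library in each line. The 2 libraries of input chromatin were left out. Reads were aligned by the authors to mm9 with Bowtie 0.12.7 and peaks were called in each library separately. Per the submitters' processing notes, CASAVA 1.8.2, SAMtools 0.1.18 and bedtools 2.14.3-1 were also used. The lists as deposited by the authors hold chromosome, start and end only, on a grid of 150 bp, so that edges are known to within 1 grid window and depth is unknown.

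Peaks sharing at least 1 bp were counted as overlapping. Gene bodies came from GENCODE M1 and sequence from NCBIM37, the assembly of mm9, and all peaks lay within its chromosomes. Motifs were exact matches wholly inside a peak, on both strands. Matched pairs in edge comparisons are peaks that each overlap 1 peak of the other line. The overlap, the motif search and the clusters were tested on simulated data, in which 300 of 300 planted overlaps, 2000 of 2000 motifs and 500 of 500 clusters were recovered. Named are the members, genes overlapping their windows where a peak is nearest to them, and the imprinted and related genes that were listed. The members and gene lists were chosen with earlier results of these data known. Alternatives were other flanks, stricter overlaps, wide peaks only, autosomes only, peaks of 1 protein that carry the other, other intervals for the motifs and other cluster distances. Python 3.11.15, numpy 2.4.6, scipy 1.17.1 and matplotlib 3.10.9 were used.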

Additional observations from a re-analysis of the deposited data

How the results depend on the processing

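Of 67 alternatives for 30 counts and ranks, 50 left the value within 1.5 times, or within the counting interval (exact Clopper-Pearson, 95%) of the rank, and 17 did not. The counts of ZFP57 peaks in the windows, of those found in both lines and of those with KAP1 were 3 under every alternative run. With only the peaks wider than the median of their list, 7 of the 15 BJ1 KAP1 peaks were left. Among autosomal peaks, the JB1 ZFP57 ranks moved to percentile 96.4 at *Plagl1* and 97.7 at *Zrsr1*/*Commd1*. Among ZFP57 peaks with KAP1 of the line, the rank was 95.6 at *Plagl1* in BJ1, 65.2 and 84.5 at *Grb10* in JB1 and BJ1, and 97.9 and 95.6 at *Zrsr1*/*Commd1*. Among KAP1 peaks with ZFP57 of the line, it was 43.5 and 68.0 at *Plagl1*, 29.1 and 42.1 at *Grb10*, and 60.9 and 73.7 at *Zrsr1*/*Commd1*. With TGCCGC alone, *Zrsr1*/*Commd1* had 0 motifs, and inside the BJ1 KAP1 peak it had 4. With motif starts less than 50 bp apart, *Grb10* had 2 clusters. The other imprinted genes with ZFP57 in both lines were 15 in gene bodies and 19 with flanks of 50 kb. No paired analysis was possible because each line and antibody has 1 library. Heights, read numbers and the JF1 sequence were not analysed here, so motifs are those of the B6 genome.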
